A study of Homo sapiens with 8 samples.

Results

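The genes of the aminoacyl-tRNA synthetases were followed in H1 cells, a human embryonic stem cell line, after lentiviral transduction. A list of 36 genes was used, 20 for enzymes of the cytosol and 16 for enzymes of the mitochondrion. The members were found by their gene symbol on the array, with or without a final 1, and each was represented by its brightest probe. Of the 36, 35 had a named probe and 34 (19 cytosolic and 15 mitochondrial) passed the filter on dim probes, out of 12436 genes tested in all. CARS1 was not analysed here, and the probe of WARS2 read 101 to 109 on all 8 arrays, below the filter intensity of 123.7, so it was not tested. The study hybridised total RNA of 4 groups to Illumina expression arrays, 2 arrays per group: cells that received the EF1a-control vector, the OE-NANOG vector, the OE-OCT4 vector or the OE-SOX2 vector, all as lentivirus in the presence of polybrene and grown on Matrigel in mTeSR medium. NANOG, OCT4 (encoded by POU5F1) and SOX2 hold embryonic stem cells in the pluripotent state, and the labels describe the last 3 vectors as overexpressing them. All groups come from 1 cell line, and no label gives how long after transduction RNA was taken. Since the labels do not describe replicates as separate cultures, p-values cover the spread between the arrays at hand alone, and that spread may be technical.

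Aminoacyl-tRNA synthetases join each amino acid to its tRNA, the step that fixes the meaning of the genetic code. Cytosolic and mitochondrial translation mostly use separate enzymes encoded by separate nuclear genes, with GARS1 and KARS1 as genes that serve both compartments. EPRS1 charges both glutamate and proline tRNA, and together with IARS1, KARS1, LARS1, MARS1, QARS1 and RARS1 its product sits in the multisynthetase complex. When amino acids run short or proteins misfold, cells phosphorylate the initiation factor eIF2, translate the transcription factor ATF4 and thereby raise amino acid synthesis genes, amino acid transporters and many cytosolic synthetase genes, a programme called the integrated stress response. WARS1, the cytosolic tryptophan enzyme, is in addition known as an interferon-induced gene.

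The deposited values were quantile normalized intensities, with a median of 117.1 over all 8 arrays together, and the number of arrays limits their precision. Replicates correlated across genes at 0.969 (OE-SOX2) to 0.996 (OE-NANOG), where genes are not independent replicates, and 303 genes differed by more than 1 log2 unit between the OE-SOX2 arrays against 0 to 44 in the other groups. The brightest probe of each transduced factor did not lie higher on its own arrays: the log2 difference from control was -0.22 for NANOG (adjusted p = 0.694), -0.95 for POU5F1 (adjusted p = 0.0793) and -0.77 for SOX2 (adjusted p = 0.0768). No source used here places these probes, and one lying outside the vector's insert could not check the labels. Arrays are therefore called by their labels, and every direction below rests on these labels. Of the 13 pluripotent cell markers, 12 were measured. The summed intensity of these 12 was 34542 and 34191 on the control arrays, 30822 to 32187 with OE-NANOG or OE-OCT4, and 26150 and 28970 with OE-SOX2. The sum includes NANOG, POU5F1 and SOX2 themselves, so it is no gauge of cell state apart from the transduced genes.

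On the arrays labelled OE-SOX2, a group of cytosolic synthetase genes rose and no gene listed as mitochondrial passed the test. GARS1 and KARS1, which serve both compartments, are counted as cytosolic throughout. Of 19 cytosolic genes, WARS1, SARS1, GARS1, IARS1 and YARS1 rose and 0 fell, by 1.48-fold to 3.36-fold. These folds come from background-corrected values and are not the ratio of the deposited intensities. Over all genes tested, 6.1% rose and 5.01% fell in this comparison (limma, adjusted p under 0.05). The fit shares 1 spread per gene over the 4 groups, although replicates differed most with OE-SOX2. Their median absolute log2 difference over all genes was 0.21, against 0.09 to 0.14 in the other groups. In a fit of the 2 groups alone, and with array weights, only SARS1 and WARS1 stayed called. Calls over all genes went from 1382 to 207 and 582 in these 2 settings. The arrays of the 2 groups did not overlap, with OE-SOX2 higher, for 9 of the 19 cytosolic genes and for 0 of 15 mitochondrial genes, against 25.1% of all genes. In the opposite direction, 3 cytosolic and 7 mitochondrial genes had all OE-SOX2 arrays below all control arrays, also against 25.1% of all genes. The median log2 change was 0.12 over the cytosolic genes, -0.11 over the mitochondrial genes and 0 over all genes.

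**Figure D1:**
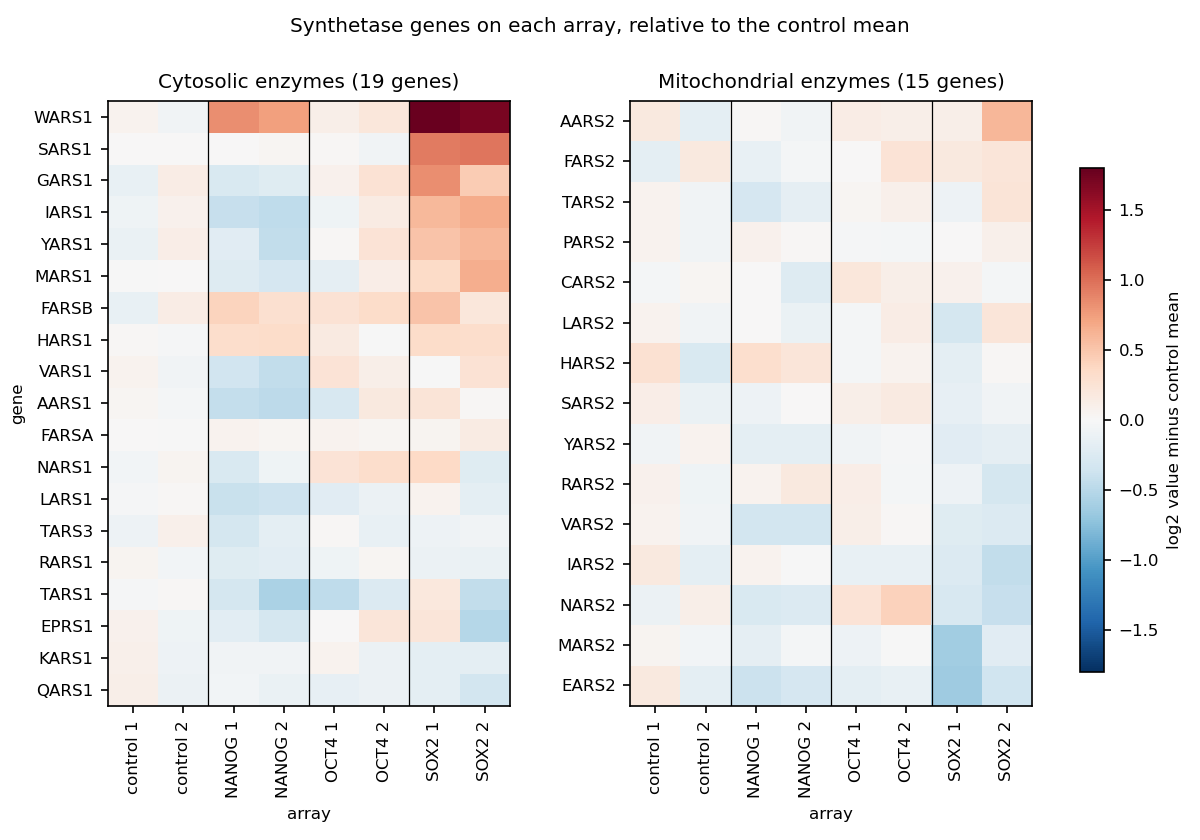
Each row is a synthetase gene and each column an array; colour gives the log2 value minus the mean of the control arrays, and rows are ordered by the change with OE-SOX2. WARS1 stands out on the OE-NANOG and OE-SOX2 arrays (log2 change 0.79 and 1.75), and the genes next to it in the cytosolic panel are raised on both OE-SOX2 arrays, while the mitochondrial panel has no gene past the test in that comparison.

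WARS1, the cytosolic tryptophanyl-tRNA synthetase, had the largest change of any synthetase gene. Its intensity was 1012 and 936 in control and 3247 and 3088 with OE-SOX2, a 3.36-fold rise (log2 1.75, SE 0.11, n = 2 against 2, adjusted p = 0.000238). The arrays of the groups lay far apart, and a further WARS1 probe read 667 and 648 against 2200 and 2518 (log2 1.91). SARS1, which charges serine tRNA, read 410 and 411 in control and 749 and 762 with OE-SOX2, a fitted 1.94-fold rise (log2 0.95, SE 0.10, adjusted p = 0.0018). Both SARS1 replicate pairs were nearly identical, and the calls of SARS1 and WARS1 held with any 1 array left out.

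The other risers changed less. GARS1, the glycine enzyme of both compartments, read 2837 and 3440 in control and 5529 and 4288 with OE-SOX2 (log2 0.65, SE 0.16, adjusted p = 0.0365). IARS1, the isoleucine enzyme of the multisynthetase complex, went from 1138 and 1272 to 1776 and 1883 (log2 0.62, SE 0.12, adjusted p = 0.0185). YARS1, the tyrosine enzyme, went from 2032 and 2402 to 3154 and 3334 (log2 0.56, SE 0.14, adjusted p = 0.0412). In each of these the OE-SOX2 arrays all lay above the control arrays. The methionine enzyme gene MARS1 read 858 and 871 against 1093 and 1332, also without overlap, and did not pass (log2 0.50, SE 0.14, adjusted p = 0.0593). The GARS1 call ended without any 1 of the control, OE-NANOG or OE-OCT4 arrays (adjusted p 0.0549 to 0.214), as did that of YARS1, which also ended without OE-SOX2 replicate 2 (0.0617 to 0.232 and 0.071). The IARS1 call ended without control replicate 1 (0.128) or either OE-NANOG array (0.0538), and its dim further probe, at 106 to 134 over all arrays, was at log2 0.03. Leaving out an OE-SOX2 array changed which synthetase genes were called. The number called over all genes moved in these fits too, so the added calls are no result about synthetases as a group. Without replicate 1, AARS2 and MARS1 passed as higher and EPRS1 as lower (0.60, 0.65 and -0.51 on replicate 2 relative to the control mean). Without replicate 2, FARSB passed as higher and EARS2 and MARS2 as lower (0.52, -0.64 and -0.63 on replicate 1), and YARS1 was lost.

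**Figure D2:**
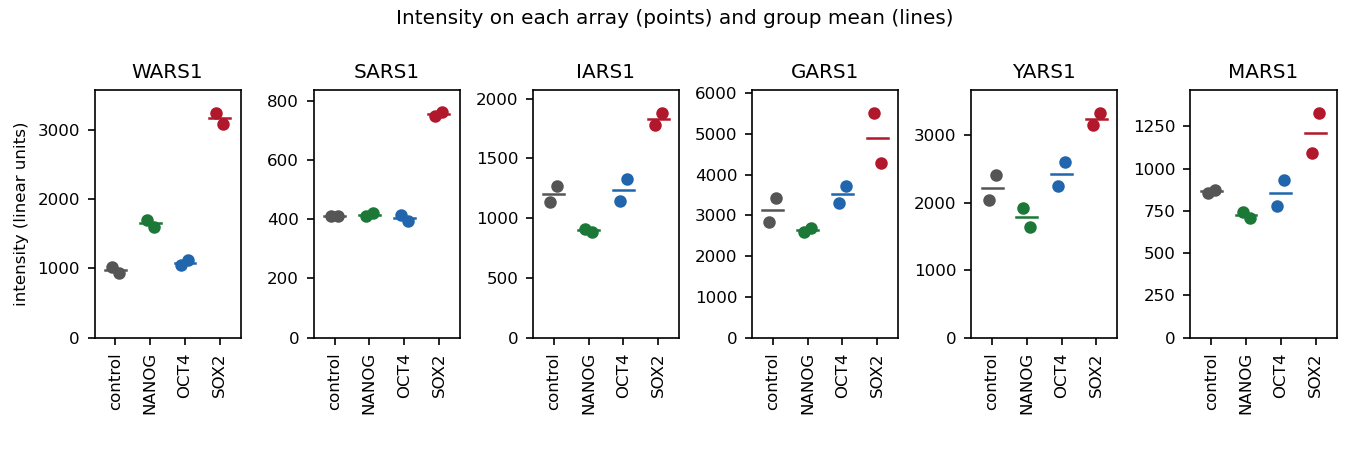
Points are the intensities (linear units, axes from 0) of 6 cytosolic synthetase genes on each array, and lines are group means over 2 arrays. The OE-SOX2 points lie above all control points in every panel; with OE-NANOG, WARS1 is well above control, SARS1 is at its level (log2 change 0.02) and the other 4 genes are below it.

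No other cytosolic gene passed with OE-SOX2 and all arrays in the fit. HARS1 (histidine, 0.32) and FARSB lay above control without overlap, and KARS1 (lysine, -0.17), QARS1 and RARS1 (arginine, -0.11) below it. The multisynthetase complex enzymes did not move as a group: IARS1 rose, MARS1 is given above, and the other 5 of 7 tested lay between -0.25 (QARS1, glutamine) and -0.06 (LARS1, leucine) on the log2 scale. The scaffold genes of the complex, AIMP1, AIMP2 and EEF1E1, were not tested. EPRS1 differed between the OE-SOX2 replicates, at 2621 and 1594 against 2383 and 2130 in control, and so did TARS1 (threonine, 1035 and 677 against 901 and 923) and NARS1 (asparagine, 1730 and 1173 against 1311 and 1408). For these 3 genes, replicate 1 minus replicate 2 within OE-SOX2 was 0.58 to 0.73 log2, and their arrays overlapped with control. FARSB and FARSA, the beta and alpha subunits of the phenylalanine enzyme, were at log2 0.36 (adjusted p = 0.157) and 0.10 (adjusted p = 0.586). Both structural classes of enzyme had risers: 3 of 8 tested cytosolic class I genes and 2 of 10 class II genes, with EPRS1 left out as it holds a domain of each class.

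More mitochondrial genes had values below control than above it on the OE-SOX2 arrays, and none passed with all arrays in the fit. Of 15 tested, 10 had a log2 change under 0, with adjusted p from 0.0665 to 0.915 over all 15. The lowest was EARS2, the mitochondrial glutamate enzyme, which read 770 and 619 in control and 459 and 546 with OE-SOX2 (log2 -0.50, SE 0.15, adjusted p = 0.0665). MARS2, the mitochondrial methionine enzyme, read 335 and 315 against 225 and 286 (log2 -0.42, SE 0.15, adjusted p = 0.115). NARS2 (asparagine) was at -0.36 and IARS2 (isoleucine) at -0.34, and in all 4 genes the arrays of the groups did not overlap. The highest was AARS2 (alanine), at 0.35 (adjusted p = 0.26), with 287 and 386 against 301 and 243. The mitochondrial median moved with the control arrays: it was 0 without control replicate 1 and -0.23 without control replicate 2.

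For 14 mitochondrial genes the cytosolic enzyme of the same amino acid was also tested, with EPRS1 entering for glutamate and proline and FARSB for phenylalanine. The log2 change with OE-SOX2 was higher for the cytosolic gene in 10 of the 14 pairs, with a median difference of 0.36. The phenylalanine pair turns on the subunit used: with OE-SOX2, FARSB was at 0.36 and FARS2 at 0.20, but FARSA at 0.10. Serine showed the widest gap (SARS1 0.95, SARS2 -0.11), followed by isoleucine (IARS1 0.62, IARS2 -0.34), methionine (MARS1 0.50, MARS2 -0.42) and tyrosine (YARS1 0.56, YARS2 -0.19). SARS2 read 1364 and 1157 in control and 1135 and 1196 with OE-SOX2, with overlap. IARS2 read 1100 and 883 against 833 and 740, and YARS2 881 and 962 against 799 and 829, both without overlap and below control. Alanine ran the other way (AARS1 0.12, AARS2 0.35), as did threonine (TARS1 -0.13, TARS2 0.07). With OE-NANOG the cytosolic gene was higher in 5 of 14 pairs (median difference -0.16) and with OE-OCT4 in 8 of 14 (0.04). These comparisons share the control arrays. Array by array, the cytosolic median minus the mitochondrial median, each relative to the control mean, was -0.06 and 0.06 in control, -0.13 on both OE-NANOG arrays, 0.01 and 0.04 with OE-OCT4, and 0.40 and 0.22 with OE-SOX2. The OE-SOX2 arrays were the highest and the OE-NANOG arrays the lowest.

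**Figure D3:**
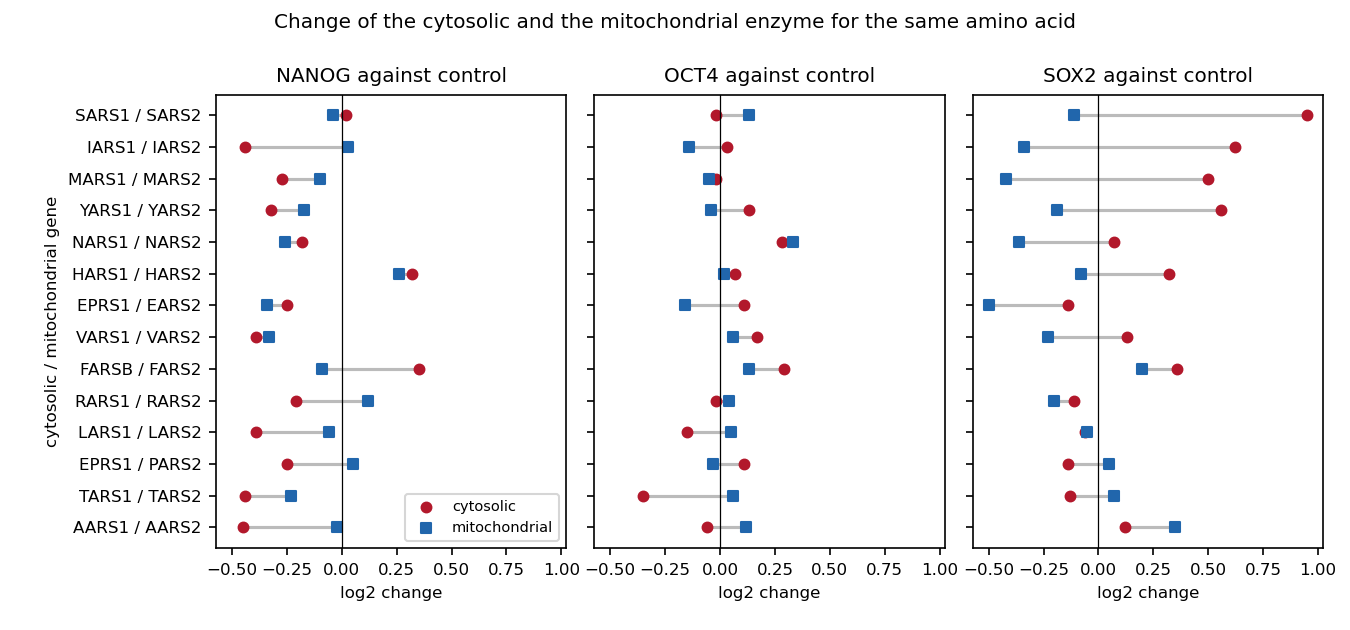
Circles are the log2 change of the cytosolic gene and squares that of the mitochondrial gene for the same amino acid, joined by a line, in each factor against control. With OE-SOX2 the circles of serine, isoleucine, methionine and tyrosine lie to the right of 0 and their squares to the left; 10 of 14 pairs have the circle further right.

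On the arrays labelled OE-NANOG, WARS1 rose while most other cytosolic synthetase genes had values below control that did not pass. WARS1 read 1697 and 1601 against 1012 and 936 in control, a 1.73-fold rise (log2 0.79, SE 0.11, adjusted p = 0.00915), and its further probe read 1204 and 1152 against 667 and 648. It was the only 1 of 34 synthetase genes past the test, where 3.63% of all genes changed (2.74% rose and 0.885% fell). Of 19 cytosolic genes, 14 had a log2 change under 0, and 12 had both OE-NANOG arrays below both control arrays, against 29.6% of all genes; 5 lay above without overlap, against 25.7%. Of the 15 mitochondrial genes, 5 lay below and 0 above without overlap. Among the lowest were AARS1 (alanine), at 3035 and 2947 against 4159 and 3986 (log2 -0.45, SE 0.16, adjusted p = 0.195), and IARS1, at 912 and 884 against 1138 and 1272 (log2 -0.44, SE 0.12, adjusted p = 0.108). TARS1 was also at -0.44 (adjusted p = 0.326), and LARS1 and the valine enzyme gene VARS1 at -0.39 (adjusted p = 0.143 and 0.179). Their arrays did not overlap with control. HARS1 (histidine, 0.32) and FARSB (0.35) lay above control without overlap and did not pass. A dim further FARSB probe, at 109 to 139 over all arrays, was at -0.17. The cytosolic median was -0.24, the mitochondrial median -0.09 and that of all genes -0.02. The WARS1 call ended without control replicate 2 (adjusted p = 0.0904), OE-NANOG replicate 1 (0.163) or OE-NANOG replicate 2 (0.0978). With only the 2 groups in the fit, 5 synthetase genes were called (AARS1, IARS1, LARS1 and TARS1 lower, WARS1 higher). With array weights 4 were called (IARS1, LARS1 and VARS1 lower, WARS1 higher). Over all 12436 genes the calls went from 451 to 1217 and 1272 in these 2 settings. Without either OE-SOX2 array, IARS1 and LARS1 passed as lower beside WARS1, and the calls over all genes moved up as well.

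On the arrays labelled OE-OCT4, no synthetase gene passed (0 of 34 in limma's test, with 0 cytosolic and 1 mitochondrial gene at an unadjusted p under 0.05), where 0.281% of all genes did (0.217% rose and 0.0643% fell). Log2 changes ran from -0.35 (TARS1) to 0.33 (NARS2), with medians of 0.03 for the cytosolic and 0.05 for the mitochondrial genes. The mitochondrial asparagine enzyme gene NARS2 read 447 and 498 against 358 and 410 in control (SE 0.13, adjusted p = 0.566), without overlap. Over the list, 5 cytosolic and 2 mitochondrial genes lay above control without overlap, against 21.2% of all genes, and 3 and 0 below, against 18.6%.

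Set against each other, the arrays labelled OE-SOX2 and OE-NANOG differed in 8 cytosolic synthetase genes, each higher with OE-SOX2, and in 0 mitochondrial ones, where 17.7% of all genes differed (8.93% higher and 8.81% lower). Without overlap, 11 of 19 cytosolic genes were higher with OE-SOX2 and 2 lower, and 4 and 5 of 15 mitochondrial genes, against 30.5% and 27.4% of all genes. The 8 genes were IARS1 (log2 1.06, SE 0.12, adjusted p = 0.00102), WARS1 (0.96), SARS1 (0.93), GARS1 (0.89), YARS1 (0.88), MARS1 (0.77), AARS1 (0.57) and VARS1 (0.51). IARS1 thus read 1776 and 1883 on the OE-SOX2 arrays against 912 and 884 on the OE-NANOG arrays, with control in between at 1138 and 1272. MARS1 was in the same order, at 1093 and 1332 against 742 and 709, with 858 and 871 in control. Against OE-OCT4, the OE-SOX2 arrays were higher in WARS1 (log2 1.59, SE 0.11, adjusted p = 0.000318), SARS1 (0.98) and IARS1 (0.59) and lower in NARS2 (-0.69, SE 0.13, adjusted p = 0.0165), where 6.9% of all genes differed (3.91% higher and 2.99% lower). Without overlap, 7 cytosolic and 1 mitochondrial gene were higher, against 23.5% of all genes, and 3 and 9 lower, against 25.2%. NARS2 read 321 and 297 with OE-SOX2 and 324 and 330 with OE-NANOG, both below the 447 and 498 of OE-OCT4, and it was the only mitochondrial synthetase gene past the test in any of the 6 comparisons. Between OE-NANOG and OE-OCT4, WARS1 was higher with OE-NANOG (0.63, adjusted p = 0.013) and VARS1 (-0.56, adjusted p = 0.042) and NARS2 (-0.59, adjusted p = 0.0285) lower, where 7.16% of all genes differed (4.32% higher and 2.84% lower). Without overlap, 2 cytosolic and 3 mitochondrial genes were higher, against 27.5% of all genes, and 11 and 9 lower, against 33.7%. The SARS1, WARS1 and IARS1 differences between OE-SOX2 and OE-NANOG and the SARS1 and WARS1 differences between OE-SOX2 and OE-OCT4 held with any 1 array left out. Each of the other differences in this paragraph was lost when some array was left out (highest adjusted p 0.278). Without an OE-SOX2 array, mitochondrial genes also passed between OE-SOX2 and OE-NANOG: AARS2 and TARS2 as higher and IARS2 and RARS2 as lower with OE-SOX2 without replicate 1, and MARS2 as lower without replicate 2. In each of these comparisons the number of synthetase genes called moved with the array left out. It was highest without an OE-SOX2 array and lowest without an OE-NANOG or OE-OCT4 array. The number called over all genes moved in the same way.

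The cytosolic genes that passed belong to a list of 13 cytosolic synthetases known as ATF4 targets, a list drawn from background knowledge with earlier results of these data known. Of its 12 tested members, 5 rose with OE-SOX2 against control, where 6.1% of all genes did, and 8 were higher with OE-SOX2 than with OE-NANOG, where 8.93% of all genes were. Of the 7 other cytosolic genes, FARSA, FARSB, HARS1, KARS1, QARS1, RARS1 and TARS3, 0 passed in any of the 6 comparisons. The median log2 change with OE-SOX2 was 0.31 over the listed genes and -0.08 over the others; with OE-NANOG it was -0.29 and -0.07. On single arrays the median of the listed genes relative to the control mean was 0.36 on both OE-SOX2 arrays, -0.28 and -0.34 with OE-NANOG, and 0.01 and 0.16 with OE-OCT4. This median was above control on both OE-SOX2 arrays and below it on both OE-NANOG arrays; with OE-NANOG, 10 of the 12 genes lay below control without overlap, against 29.6% of all genes, and WARS1 and SARS1 above it.

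The promoters of these genes were searched for TGATGNAA, the core of the composite site bound by ATF4 and C/EBP proteins, on both strands of RefSeq windows (GRCh38.p14) that run from 250 bases before to 50 bases after an annotated start. Of the 36 genes, 30 had a window, and AARS2, LARS1, TARS3, VARS1, VARS2 and YARS1 had none. The letters were found for 7 of 16 cytosolic genes (AARS1, CARS1, GARS1, IARS1, MARS1, NARS1 and TARS1) and for 1 of 14 mitochondrial genes (YARS2). By gene, they were found for 4.46% of all genes with a window and 2.9% of those tested on the arrays. By window the shares were 33.3% of 21 cytosolic and 5.56% of 18 mitochondrial windows. The share was 3.62% of all 35116 windows and 2.13% of those of genes tested on the arrays. Of the 6 tested cytosolic genes with a match, 2 rose with OE-SOX2 against control and 4 were higher than with OE-NANOG; of 9 with a window and no match, WARS1 and SARS1 rose in both. A match is a description of these letters and no evidence of binding. The matches of genes that passed in some comparison are shown to give the position of the letters relative to the start; each run is on the strand of the gene, with the match in capitals, and stops at most 10 bases past the start.
AARS1: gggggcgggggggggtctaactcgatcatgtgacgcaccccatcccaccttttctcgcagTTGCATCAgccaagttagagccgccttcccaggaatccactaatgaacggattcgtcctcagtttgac
GARS1: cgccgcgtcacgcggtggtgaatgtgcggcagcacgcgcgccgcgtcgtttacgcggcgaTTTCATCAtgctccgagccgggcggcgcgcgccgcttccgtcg
IARS1: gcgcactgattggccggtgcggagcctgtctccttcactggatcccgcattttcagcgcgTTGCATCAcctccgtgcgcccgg
MARS1: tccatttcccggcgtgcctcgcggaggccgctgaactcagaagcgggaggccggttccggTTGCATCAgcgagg
The AARS1 run is chr16:70289626-70289753 (minus strand), with the match from base -187 to -180 relative to the start. The GARS1 run is chr7:30594785-30594887 (plus strand), from -33 to -26, in 1 of its windows. The IARS1 run is chr9:92293688-92293770 (minus strand), from -13 to -6. The MARS1 run is chr12:57488004-57488077 (plus strand), where the match spans the start from -4 to 4. All 4 matches read on the strand opposite to the gene, and AARS1, IARS1 and MARS1 share the letters TTGCATCA. These 4 genes read lower with OE-NANOG than in control (log2 -0.25 to -0.45, none past the test) and were chosen as passing in some comparison, so their calls are no result about the match. The other tested cytosolic genes with a match, NARS1 and TARS1, differed by 0.25 and 0.31 between OE-SOX2 and OE-NANOG and did not pass.

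HARS1 and HARS2, the cytosolic and mitochondrial histidine enzymes, are transcribed away from each other on chromosome 5, and only 84 bases lie between their annotated starts (chr5:140691371-140691454, GRCh38.p14, shown on the plus strand, which is that of HARS2). The stretch is given because the 2 genes share it upstream of their starts.
HARS1 and HARS2: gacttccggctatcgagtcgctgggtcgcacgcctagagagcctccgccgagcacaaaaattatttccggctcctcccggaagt
HARS1 read 826 and 806 in control, 1004 and 1012 with OE-NANOG, 904 and 808 with OE-OCT4, and 1013 and 1007 with OE-SOX2. HARS2 read 700 and 495 in control, 714 and 679 with OE-NANOG, 574 and 616 with OE-OCT4, and 525 and 595 with OE-SOX2. HARS1 was above control without overlap for OE-NANOG and OE-SOX2 (log2 0.32 in each, adjusted p = 0.181 and 0.102), while HARS2 overlapped with control in every group and differed by 0.54 log2 between the control arrays. Neither gene passed in any of the 6 comparisons.

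Other genes of the integrated stress response moved with the cytosolic synthetases on the arrays labelled OE-SOX2. Of 19 tested genes of that list, 12 rose and 1 fell (6.1% and 5.01% of all genes did), with a median log2 change of 0.76. The count includes CHAC1 (121 and 115 in control) and EIF2AK3 (118 and 119), which lay below the filter intensity on both control arrays. Their rises are therefore bounds, at least 2.16-fold and 1.39-fold. CHAC1 would not have passed the filter without its OE-SOX2 arrays (188 and 228), so its call is not independent of that selection. TRIB3, a pseudokinase that feeds back on ATF4, read 249 and 292 in control and 2451 and 1673 with OE-SOX2 (log2 3.13, SE 0.22, adjusted p = 0.000267). DDIT3, the transcription factor CHOP, went from 177 and 173 to 621 and 810 (log2 2.32, SE 0.14, adjusted p = 0.000238). ATF3 (1.87) and the secreted glycoprotein gene STC2 (1.71) followed, and the lipoprotein receptor gene VLDLR fell by 0.77. ATF4 itself, which is controlled largely at translation, read 5399 and 5951 against 3127 and 4724 and did not pass (0.57, SE 0.18, adjusted p = 0.089). With OE-NANOG, VLDLR fell (-0.60, adjusted p = 0.0416), 0 of 19 rose and the median was -0.14; with OE-OCT4 none passed, and TRIB3 was at 470 and 620 (1.13, adjusted p = 0.109).

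Amino acid synthesis genes, which supply the substrates of the synthetases, followed the same order of groups. Of 15 tested, 5 rose and 1 fell with OE-SOX2, against 6.1% and 5.01% of all genes (median log2 change 0.44), and 0 passed with OE-NANOG (median -0.33) or OE-OCT4 (0.03). ASNS, asparagine synthetase, read 1931 and 2951 in control and 6600 and 4884 with OE-SOX2 (log2 1.27, SE 0.24, adjusted p = 0.0144). The serine pathway gene PSPH (1.01), the glycine-forming enzyme gene SHMT2 (0.89) and the cysteine-forming enzyme gene CTH (0.68) also rose. ALDH18A1, an enzyme of proline synthesis, fell (-0.52, adjusted p = 0.0455). Calls of ASNS, SHMT2, CTH and VLDLR with OE-SOX2 each ended without control replicate 1 (adjusted p up to 0.0951), and those of VLDLR with OE-NANOG, PSPH and ALDH18A1 without several arrays (up to 0.392), whereas TRIB3, DDIT3, ATF3 and STC2 passed with any 1 array left out.

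The remaining translation lists showed few calls. With OE-SOX2, 6.1% of all genes rose and 5.01% fell, so the calls below are no result about these lists. Of 21 cytosolic translation factor genes, the start-site selection factor EIF1 rose with OE-SOX2 (log2 0.67), and the cap-binding factor EIF4E (-0.47) and the ribosome recycling factor ABCE1 (-0.42) fell. Of 13 mitochondrial translation factor genes, the release factor gene MTRF1L rose (0.72). Among 22 tRNA processing and modification genes, the splicing endonuclease subunit gene TSEN15 rose (0.68) and the pseudouridine synthase gene PUS7 fell (-0.77). Of 3 proofreading and selenocysteine genes, DTD1, a deacylase that removes D-amino acids from tRNA, rose with OE-NANOG (0.54, adjusted p = 0.0484), where 2.74% of all genes rose. Endoplasmic reticulum chaperone genes gave a different picture from the synthetases: with OE-NANOG, 10 of 12 lay above control without overlap, against 25.7% of all genes, and 0 passed (median 0.36), and with OE-SOX2 the chaperone gene HSPA5 rose (0.63, adjusted p = 0.0489; median 0.17). The EIF1 and MTRF1L calls ended without control replicate 1, and those of EIF4E, ABCE1, TSEN15, PUS7, DTD1 and HSPA5 without 5 to 7 of the 8 arrays in turn (adjusted p up to 0.37).

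**Figure D4:**
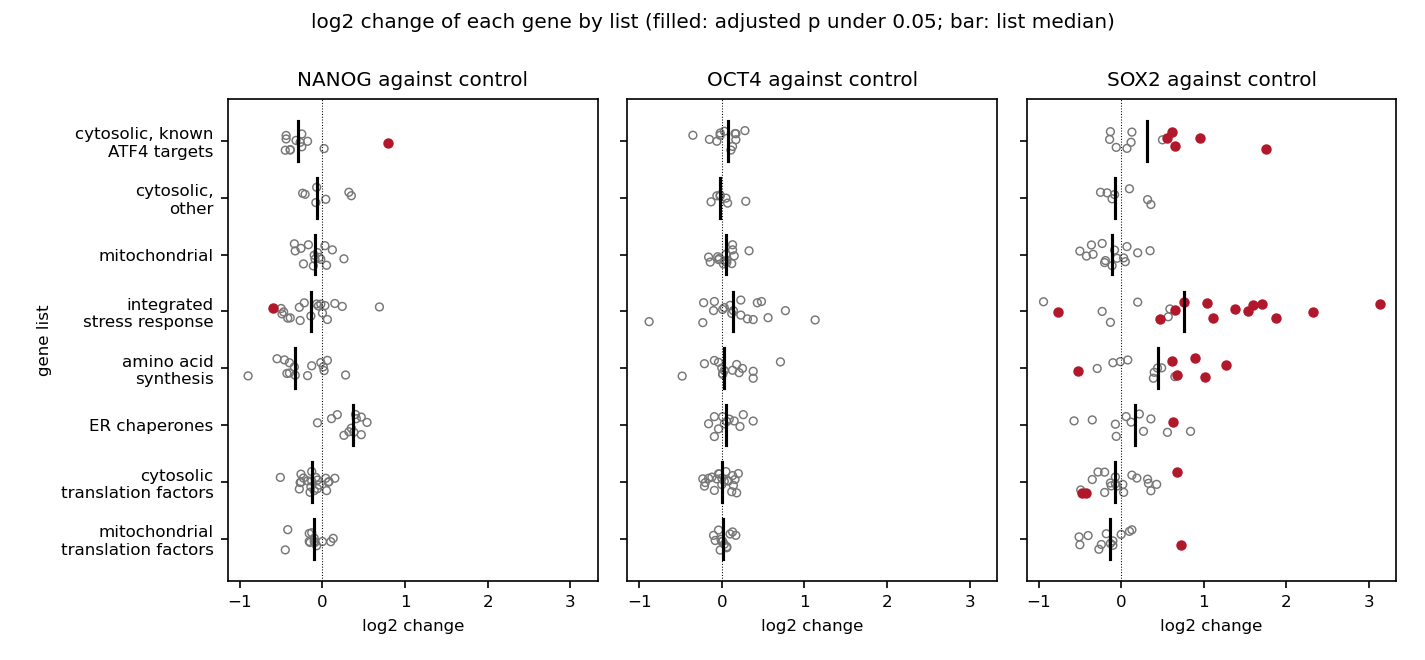
Each point is the log2 change of a gene in a factor against control, grouped by list; filled points passed the test (adjusted p under 0.05) and bars are list medians. With OE-SOX2 the filled points are mostly in the ATF4 target, stress response and amino acid synthesis lists (5 of 12, 13 of 19 and 6 of 15 genes), while the other cytosolic and the mitochondrial synthetases have none.

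Because WARS1 is also interferon-induced, a list of 20 interferon-stimulated genes was added after its values were seen, and it gets no test as a list. With OE-SOX2, 6 of 15 tested genes rose, against 6.1% of all genes, and 0 fell (median log2 change 0.63), among them the antiviral GTPase gene MX1 (1.40, adjusted p = 0.000981), the immunoproteasome subunit gene PSMB9 (1.24) and the peptide transporter gene TAP1 (1.16), whose call ended without control replicate 1 and in a fit of these 2 groups alone (adjusted p up to 0.0829). With OE-NANOG, where WARS1 rose as well, the median was 0.05; the antiviral gene IFIT3 rose (166 and 162 against 120 and 114 in control, where it lay below the filter intensity; adjusted p = 0.0135) and IFIT1 fell by 0.52 on the log2 scale, calls that ended without 3 and 6 of the arrays in turn (adjusted p up to 0.204 and 0.325). IRF1, an interferon-gamma target, was at 0.25 with OE-NANOG (adjusted p = 0.582) and at 0.01 with OE-SOX2 (adjusted p = 0.98). With OE-SOX2 the log2 changes of the 15 tested genes ran from 0.01 to 1.40. Of these genes, 11 lay above control without overlap, against 25.1% of all genes. Their part in the WARS1 values was not tested.

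Markers of cell state also changed, with most calls on the OE-SOX2 arrays. With OE-NANOG, 1 of 12 pluripotent cell markers fell, PODXL (log2 -1.03), where 0.885% of all genes fell. That call ended without 3 of the arrays in turn. With OE-OCT4 no marker passed. With OE-SOX2, 4 of 12 pluripotent cell markers fell (TERF1, DNMT3B, ZFP42 and SALL4) and 0 rose, where 5.01% of all genes fell and 6.1% rose. TERF1 passed with any 1 array left out. Of 4 tested neural progenitor markers, FABP7 rose (log2 1.64, adjusted p = 0.000466), and their summed intensity was 1696 and 2652 against 1366 and 1419 in control. Fibroblast markers (6 tested) summed to 2260 and 3039 against 2889 and 3298, with COL1A2 lower (-0.84, adjusted p = 0.031, lost without 5 of the arrays in turn), and blood and endothelial markers (3 tested) to 440 and 481 against 502 and 449, with none past the test. None of these lists has a marker at 0, since array intensities do not reach it. Fewer cells of a type and less RNA per cell cannot be told apart in such bulk samples, and the part of these markers in the synthetase values was not tested.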

How the data were processed

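Total RNA of 8 samples was measured on Illumina arrays, 1 per sample. The authors' deposited values are intensity on a linear scale for 47323 probes; they were quantile normalized, as sorted values differ by at most 2.3 between arrays. The sources used here name neither the tool nor a background step. The 16 columns of a table from before normalization match no sample's label and were not used. Values were background corrected with normexp (offset 50) in limma 3.58.1 under R 4.3.3 and put on the log2 scale. Probes above 123.7, the 60th percentile, on at least 2 arrays were kept, and each gene took its brightest probe (mean log2). Dim further probes of FARSB (109 to 139), MARS2 (106 to 119) and VARS1 (106 to 120) were not used. For OE-SOX2 against control they were at log2 0.16, 0.05 and -0.05. For OE-SOX2 against OE-NANOG the further VARS1 probe was at -0.02. Symbols came from the platform annotation (30113 probes with 1 symbol, 8 with several, 17202 with none) and 0 needed updating. Tests were limma (lmFit, eBayes) with a mean per group over all 8 arrays, two-sided, adjusted by Benjamini-Hochberg over 12436 genes. Fold changes depend on the background correction and the offset, so they are not ratios of deposited intensities. Tables were assembled in Python 3.11.15. The fit was tested on simulated data, in 10 draws with 200 changed genes each. For OE-SOX2 against control it recovered 13.1% of changes of log2 0.5, 69.4% of log2 1 and 95% of log2 2. The simulated arrays had 1 spread per gene in all groups, whereas the real OE-SOX2 replicates differed more than the others. The 200 changed genes were also fewer than the 1382 called in the data. These shares therefore hold for the simulated setting and do not give the power of the real comparison. A gene that did not pass may thus still differ, above all where its change is small. The members and lists were chosen with earlier results of these data known. Genes were named by rule: synthetases past the test against control with the partners of the most changed ones, and up to 4 passing genes of each other list, with ATF4 and TRIB3; other named genes, HARS1 and HARS2 included, were chosen after their values were seen. Alternatives were other background settings, filters, probes per gene, array weights, fits of 2 groups, a replicate block and leaving out each array. No table of protein sequences was used.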

Additional observations from a re-analysis of the deposited data

How the results depend on the processing

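Of 21 calls on synthetase genes over the 6 comparisons, 7 held under every alternative run (SARS1 and WARS1 for OE-SOX2 against each other group, and IARS1 for OE-SOX2 against OE-NANOG); 14 ended without some array and 8 under some other setting, at adjusted p up to 0.278, and 0 turned sign. For OE-SOX2 against control, the 5 synthetase genes called became 3 with an offset of 16 and 3 with the replicate block, and 2 in a fit of the 2 groups alone or with array weights; for OE-SOX2 against OE-OCT4, 4 became 2 in each of the last 2 settings. For OE-NANOG against control, 1 became 5 with 2 groups and 4 with array weights, and for OE-NANOG against OE-OCT4, 3 became 9 and 8. In the same settings, the count over all genes moved from 451 to 1217 and 1272 for OE-NANOG against control. It moved from 1382 to 207 and 582 for OE-SOX2 against control. For OE-SOX2 against OE-OCT4 it moved from 858 to 184 and 446. For OE-NANOG against OE-OCT4 it moved from 890 to 2529 and 2498. The cause was not tested. With 1 array left out, the synthetase genes called ranged from 0 to 3 (OE-NANOG against control), 0 to 0 (OE-OCT4), 2 to 8 (OE-SOX2), 3 to 11 (OE-SOX2 against OE-NANOG), 2 to 7 (OE-SOX2 against OE-OCT4) and 0 to 6 (OE-NANOG against OE-OCT4). In the same fits the cytosolic median ranged from -0.24 to -0.19 with OE-NANOG, 0.02 to 0.11 with OE-OCT4 and 0.09 to 0.23 with OE-SOX2, and the mitochondrial median from -0.13 to -0.05, -0.02 to 0.11 and -0.23 to 0. Across genes, the difference between replicates 1 and 2 correlated at 0.38 between control and OE-OCT4. Between the other groups this correlation was -0.19 to 0.14. The labels do not say whether same-numbered control and OE-OCT4 arrays were handled together, and the main fit treats them as unpaired. With the replicate block, 0 synthetase genes were called for OE-OCT4 against control, as without it. The block ended the GARS1 and YARS1 calls for OE-SOX2 against control. It also ended those of AARS1 for OE-SOX2 against OE-NANOG and VARS1 for OE-NANOG against OE-OCT4. A fit with 1 array in a group assumes that it varies like the other groups.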
